A study of Danio rerio with 184 samples.

Results

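Among sorted hair cells of the zebrafish lateral line, 24 cells held at least 2 transcripts of the her4 genes, and they were set against 111 cells that held none. The cells were chosen by their her4 counts, summed over her4.1, her4.2, her4.4 and her4.5, in cells with at least 1000 unique molecular identifiers (UMIs, each standing for 1 captured transcript) outside the spike-in controls. Of 184 cells, 182 had that depth, and 47 of them held exactly 1 her4 UMI and entered neither group. The 24 cells are 13.2% of the 182 cells, with an exact binomial (Clopper-Pearson) interval of 8.64% to 19%. A cell with 2 UMIs lies just inside this limit, which 12 cells did, and the 47 cells with 1 UMI lie just outside it.

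The her4 genes encode repressor proteins of the basic helix-loop-helix class, related to mammalian Hes5, and are direct targets of Notch signalling. A Delta or Jagged ligand on one cell activates a Notch receptor on its neighbour, the receptor is cut, and its inner part enters the nucleus and switches on such targets. In the neuromast, the sensory patch of the lateral line, supporting cells are known for Notch activity, and a pair of sibling hair cells take opposite bundle orientations through Notch signalling and the homeobox transcription factor Emx2.

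The cells came from dissociated trunks of larvae at 6 days post fertilization and were sorted for green fluorescence. Both groups carry Tg[myo6b:actb1-EGFP], a fluorescent actin driven by the hair cell promoter myo6b, either with the Emx2-mutant label (92 cells) or as wild type (92 cells), and the labels do not say what the mutation is. Each cell is 1 sample, no animal or pool is named, and the first digit of the well codes, 2 or 4, was read as the plate, which no label states, with 46 mutant-labelled and 46 wild-type cells on each. Cells are not replicates of a condition, so all comparisons are descriptions without a test, and all intervals are 95% and cover counting error only. Mutant-labelled cells had 105 emx2 UMIs, a level of 193 CPM (157 to 233), and wild-type cells had 45, a level of 83.7 CPM (61.1 to 112); CPM are the UMIs of a gene scaled to a common total for all groups. With a 3′-end tag and a mutation that the labels do not describe, this level does not check the label.

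Median depth was similar in both groups over both plates together, while her4 cells were deeper within each plate and depth differed between plates. The 24 her4 cells held 2509 to 15428 UMIs with a median of 4586, and the 111 cells without her4 held 1000 to 33325 with a median of 4847. On plate 2 the medians were 11266 UMIs in 7 her4 cells and 7211 in 59 cells without her4. On plate 4 they were 4171 in 17 her4 cells and 3558.5 in 52 cells without her4. Within each plate the median her4 cell was thus the deeper one, and a sum of counts passes 2 more easily in a deeper cell. Spike-in transcripts made up a median of 2.63% of all UMIs in her4 cells and 3.37% in cells without her4. Summed, her4 cells held 145178 UMIs and cells without her4 656697.

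The her4 counts themselves were unevenly spread. Of the 24 cells, 12 held 2 UMIs, 7 held 3 to 6, and the last 5 held 11, 16, 18, 26 and 29. These 5 cells had 100 of the 156 her4 UMIs, or 64.1%, and came from both plates and both labels: 3 were mutant-labelled and 2 wild-type, 2 from plate 2 and 3 from plate 4. By copy, the 24 cells had 70 UMIs of her4.5, 48 of her4.2, 22 of her4.4 and 16 of her4.1. Only 5 cells showed a single copy, 11 showed 2 copies, 7 showed 3 and 1 showed all 4. The wild-type cell with 11 UMIs stood apart in its copies, with 9 from her4.1, while the cells with 29, 26 and 18 UMIs had none from her4.1. The copies are close relatives, and how reads shared between them were assigned is not given in the sources used here, so the split between copies is uncertain.

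**Figure D1:**
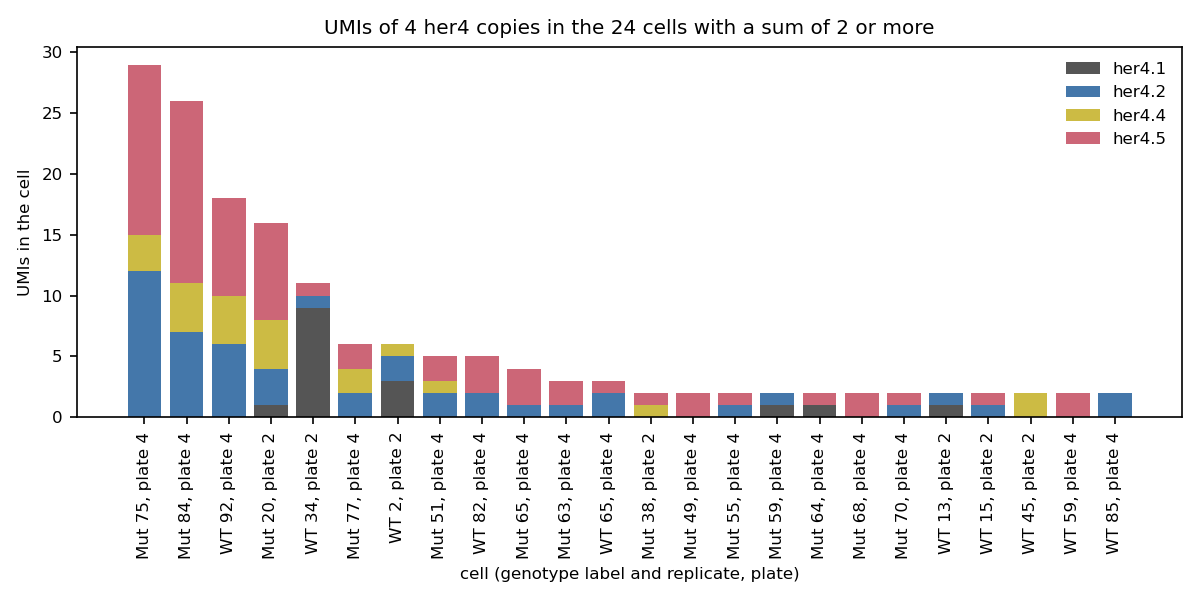
Bars give the UMIs of her4.1, her4.2, her4.4 and her4.5 (colours, stacked) in each of the 24 her4 cells, labelled with genotype label, replicate number and plate (Mut, mutant-labelled; WT, wild type). The first 5 cells hold 11 to 29 UMIs and the other 19 hold 2 to 6.

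her4 cells were not spread evenly over plates and labels. On plate 4, 2 or more her4 UMIs were held by 12 of 46 cells with the mutant label (26.1%, interval 14.3% to 41.1%), against 5 of 44 in wild type (11.4%, interval 3.79% to 24.6%). On plate 2 it was 2 of 46 with the mutant label (4.35%, interval 0.531% to 14.8%), against 5 of 46 in wild type (10.9%, interval 3.62% to 23.6%). The direction between labels was therefore opposite on the 2 plates, and all these intervals between labels overlap. To set cells at 1 depth, each was drawn down to 2000 UMIs; 3 cells with the mutant label and 2 of wild type were too shallow for that. At that depth at least 1 her4 UMI was kept on plate 4 by 15 of 43 with the mutant label (34.9%, interval 21% to 50.9%), against 8 of 43 in wild type (18.6%, interval 8.39% to 33.4%). On plate 2 the thinned counts were 6 of 46 with the mutant label (13%, interval 4.94% to 26.3%), against 6 of 45 in wild type (13.3%, interval 5.05% to 26.8%). Plate side and label coincide in this design, so the label cannot be told apart from the position on the plate.

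The her4 cells carried the defining transcripts of hair cells. pvalb8, a parvalbumin that buffers calcium and the most abundant transcript here, had UMIs in 24 of 24 her4 cells and 111 of 111 cells without her4. It took 11.3% to 31.7% of a cell's UMIs with a median of 21.5% in her4 cells, and 11.7% to 34.2% with a median of 23.7% in cells without her4. Transcripts of s100t and s100s, calcium-binding S100 proteins, and of otoferlin, the calcium sensor of hair cell exocytosis, also had UMIs in 24 of 24 her4 cells. Transcripts of the GFP reporter were at 530 CPM in her4 cells and 679 CPM in cells without her4, a ratio of 0.78 (0.60 to 1.0). Rarer markers were found in part of the cells of both groups: MYO6 in 18 of 24 her4 cells and 87 of 111 cells without her4, and TMC2 in 16 of 24 her4 cells and 78 of 111 cells without her4. gfi1aa with GFI1 was found in 18 of 24 her4 cells and 88 of 111 cells without her4, and POU4F3 in 8 of 24 her4 cells and 35 of 111 cells without her4. In the 5 cells with 11 to 29 her4 UMIs, gfi1aa with GFI1 was found in 2 of 5 cells, at 127 CPM against 512 CPM in cells without her4, and POU4F3 in 1 of 5. MYO6 and TMC2 were each found in 3 of these 5 cells. Otoferlin was found in 5 of 5, at 1696 CPM against 1917 CPM in cells without her4, and s100t in 5 of 5, at 37942 against 43200 CPM.

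By class of her4 count, the median pvalb8 share was lowest in the 5 cells with 11 to 29 UMIs, while the lowest single cell, at 9.70%, held 1 her4 UMI. Summed over cells, pvalb8 stood at 197392 CPM in her4 cells and 227825 CPM in cells without her4, a ratio of 0.866 (0.86 to 0.88 counting only), and the ratio was 0.86 on plate 2 and 0.84 on plate 4. The 5 cells with 11 to 29 her4 UMIs had 17%, 17.6%, 12.5%, 17.3% and 11.3% of their UMIs in pvalb8, in the order 29, 26, 18, 16 and 11 her4 UMIs. All 5 lay under 20%, as did 3 of the 7 cells with 3 to 6 UMIs, 3 of the 12 cells with 2, 13 of the 47 cells with 1 and 16 of the 111 cells without her4. Without the 5 cells the pvalb8 ratio was 0.95 (0.93 to 0.96).

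Across the transcriptome, 3595 genes had at least 20 UMIs over both groups, the her4 rows left out. At least 2-fold higher in her4 cells, on the same side in both plates, were 231 of them, or 6.43%, and at least 2-fold lower were 530, or 14.7%. The median gene had a log2 ratio of -0.08. Scaling by edgeR's TMM or DESeq2's size factors moved that median to -0.28 and -0.26, a shift shared by all genes. In the her4 group, which holds fewer UMIs, 70 tested genes had no UMI at all. These counts include genes whose ratio counting error alone can move past 2-fold. Among 3351 genes simulated without a set change, 10.6% were called higher or lower. Rescaling after other genes were changed also shifted the CPM of these genes. Genes that reached 20 UMIs only with the group where they were higher are also counted.

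Among the named genes higher in her4 cells were cbln18, cbln20, krt18b, cldnb, SLC1A3 and the Notch modifier LFNG. By the rule for named genes, which also asks for the same side in both labels and for a ratio past 2 without the top cell, 56 genes qualified on the higher side and the 15 whose interval bounds lay furthest from 1 are described, which are not the 15 with the largest ratios. Their ratios ran from 3.51 to 18.8. The rule also asks for 30 UMIs, counted over both groups together. LFNG, cbln18 and si:ch73-335l21.4 had 6, 27 and 11 UMIs in cells without her4. These 3 genes passed only with their UMIs in her4 cells, so the minimum itself favours their high ratios. As the groups were chosen on her4 in the same cells, these values describe the chosen cells.

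LFNG encodes lunatic fringe, a glycosyltransferase that changes how Notch receptors respond to their ligands. Single her4 cells had 0 to 2855 CPM of LFNG with a median of 0, and cells without her4 had 0 to 635 CPM with a median of 0. The sums were 25 UMIs in her4 cells and 6 in cells without her4, a ratio of 18.8 (7.55 to 56.2). A single mutant-labelled cell of plate 4, the one with 29 her4 UMIs, held 17 of the 25, and without the top cell the ratio was 6.29. LFNG was found in 5 of the 24 her4 cells and 6 of the 111 cells without her4.

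cbln18 and cbln20, of the cerebellin family of secreted proteins, followed. cbln18 ranged from 0 to 2803 CPM in her4 cells and from 0 to 611 CPM in cells without her4, with 64 UMIs in her4 cells and 27 in cells without her4, a ratio of 10.7 (6.74 to 17.5). cbln20 ranged from 0 to 15953 CPM with a median of 303 in her4 cells and from 0 to 1154 CPM with a median of 188 in cells without her4, a ratio of 7.78 (6.24 to 9.75). The medians of cbln20 lie close together, while its upper ends are far apart.

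The most abundant of the set, si:dkey-205h13.2, had 703 UMIs in her4 cells and 622 in cells without her4, a ratio of 5.11 (4.58 to 5.70). Single her4 cells ran from 197 to 25484 CPM with a median of 956, and cells without her4 reached 7403 CPM with a median of 863. Again the medians were close and the top of the her4 cells stood apart.

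Among epithelial structure genes, krt18b, a keratin of simple epithelia, had a ratio of 5.76 (4.54 to 7.32), with 163 UMIs in her4 cells and 128 in cells without her4. cldnb encodes a claudin of tight junctions and is known as a marker of the lateral line, and its ratio was 5.13 (3.82 to 6.90), with 101 UMIs in her4 cells and 89 in cells without her4. SLC1A3, a glutamate transporter of glia and supporting cells, had 44 UMIs in her4 cells and 36 in cells without her4, a ratio of 5.53 (3.48 to 8.84). PHLDA2, a pleckstrin-homology-like protein, had a ratio of 6.26 (4.23 to 9.31). The zinc finger gene znf646 had 467 UMIs in her4 cells and 602 in cells without her4, a ratio of 3.51 (3.10 to 3.97). The other 6 genes, si:dkeyp-110c7.4, si:dkey-33m11.8, si:dkey-4p15.5, si:ch73-335l21.4, si:ch211-195b11.3 and zgc:158343, have no role given here and had ratios between 4.2 and 7.81.

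**Figure D2:**
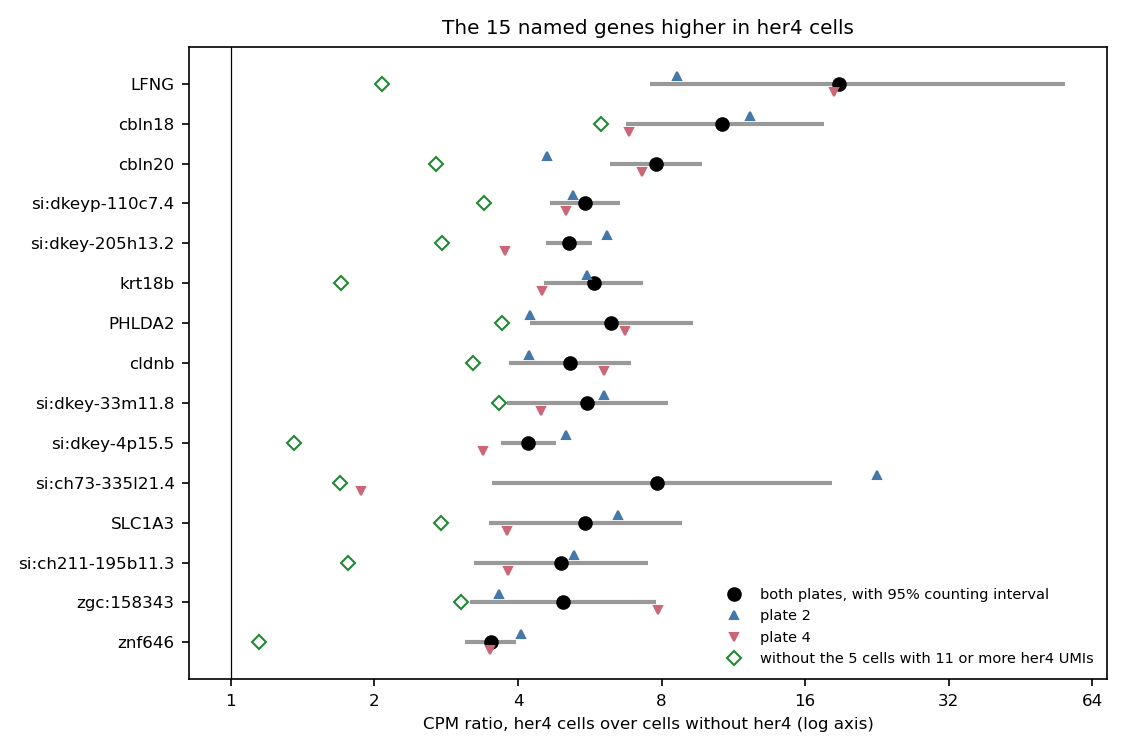
For each of the 15 named genes higher in her4 cells, the black point gives the ratio of CPM, her4 cells over cells without her4, with its 95% counting interval as a bar on a log axis; triangles give plate 2 and plate 4, and open diamonds the ratio without the 5 cells with 11 or more her4 UMIs. All 15 points lie above 1 on both plates, from 3.51 to 18.8 over both plates together, and the diamonds run from 1.15 to 5.98.

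Most of this difference sat in a few cells. The 5 cells with 11 to 29 her4 UMIs held 166 of the 222 cbln20 UMIs of the her4 group, 425 of 703 of si:dkey-205h13.2, 128 of 163 of krt18b, 356 of 467 of znf646 and 332 of 434 of si:dkey-4p15.5. Without them 10 of the 15 genes still had ratios of 2 or more, and the 15 ratios ran from 1.15 for znf646 to 5.98 for cbln18. A sixth cell stood with them: a mutant-labelled cell of plate 4 with 5 her4 UMIs, 7848 UMIs in all and 17.3% pvalb8. It held 22 UMIs of cbln18, 31 of cbln20, 200 of si:dkey-205h13.2, 23 of cldnb and 13 of SLC1A3, and its spike-in share of 12.5% was the highest of the 24 cells. The sixth cell was singled out after its values were seen.

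Since the sixth cell was picked for its values of these genes, the other 18 her4 cells are lower in them by that choice, and their levels are given as a description only. Of the 15 genes, 9 lay within 1.5-fold of cells without her4, 4 lay above and 2 below. The 4 above, PHLDA2, cldnb, si:ch73-335l21.4 and si:ch211-195b11.3, stood 1.71 to 1.9 times as high as in cells without her4. Below were LFNG and SLC1A3, with SLC1A3 at 30.7 CPM in the 18 cells and 54.8 CPM in cells without her4. cbln18 had 4 UMIs there, or 40.9 CPM, against 41.1 CPM in cells without her4. si:dkey-205h13.2 was at 797 CPM in the 18 cells and 947 CPM in cells without her4; krt18b was at 174 CPM in the 18 cells and 195 CPM in cells without her4, and znf646 at 797 CPM in the 18 cells and 917 CPM in cells without her4. cldnb was at 235 CPM in the 18 cells and 136 CPM in cells without her4, and LFNG had 0 UMIs in the 18 cells. The high levels were also not fully confined to cells with her4. For si:dkey-205h13.2, 3 of the 111 cells without her4 and 3 of the 47 cells with 1 UMI reached the lowest of the 5 cells, 2496 CPM. For cbln18 none of the 111 cells and none of the 47 did so, at a lowest value of 640 CPM in the 5 cells. Of the 111 cells, 41 did so for cldnb, 26 for si:dkey-33m11.8 and 19 each for PHLDA2 and SLC1A3. It was 3 for si:dkeyp-110c7.4, 2 for znf646, 1 for krt18b and 0 for si:dkey-4p15.5. For LFNG, cbln20, si:ch73-335l21.4, si:ch211-195b11.3 and zgc:158343, only 4 of the 5 cells held a UMI, so their lowest value was 0.

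Supporting cells surround hair cells in the neuromast and give rise to new ones, and a list of 26 supporting cell genes was read as a whole beside these results. The table held 15 rows for it, none at 0 in both groups, and of these fndc7rs4 was at 0 UMIs in her4 cells, against 4 UMIs in cells without her4; sox2 was not analysed here. Of 11 measured members (at least 10 UMIs over both groups), 9 lay higher in her4 cells and 2 lay below, for a median of 1.63 on the log2 scale against -0.13 for all genes of that depth. Of its 10 tested members, 5 were at least 2-fold higher on both plates, beside 6.43% of all genes tested. Members of the list that were named above, LFNG, cldnb and SLC1A3, count in both places. LFNG had 25 UMIs in her4 cells and 6 in cells without her4, and GATA2 had 8 and 3. Both reached 10 UMIs only with those of her4 cells, so the minimum itself favours their high ratios. They count among the 9 higher members, and LFNG among the 5. On the lower side, ISL1 had 8 and 50 UMIs and reached 10 only with cells without her4. The list was chosen with earlier results of these data known.

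By single members, FNDC7, a fibronectin-domain gene, had 23 UMIs in her4 cells and 20 in cells without her4, a ratio of 5.2 (2.73 to 9.99), which turned to 0.62 without the 5 cells. epcam, an epithelial adhesion molecule that hair cells also carry here, had 1199 CPM in her4 cells and 739 CPM in cells without her4, a ratio of 1.62 (1.36 to 1.93). The more abundant of the glutamine synthetase genes listed as GLUL had 54 UMIs in her4 cells and 146 in cells without her4, a ratio of 1.67 (1.2 to 2.30). adcyap1b, a neuropeptide gene, went the other way with 530 CPM in her4 cells and 739 CPM in cells without her4, a ratio of 0.72 (0.56 to 0.91).

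Per cell, the summed list took 0.079% to 1.51% of UMIs with a median of 0.237% in her4 cells, and 0.037% to 1.04% with a median of 0.190% in cells without her4. The groups overlap over most of their range. By her4 count the summed list was at 2115 CPM with 0 UMIs, 2505 with 1, 2282 with 2, 3062 with 3 to 6 and 7037 with 11 to 29, classes that were set after the counts were seen. Without the 5 cells the median over the same 11 members was 0.28, and it was -0.19 once members with under 10 UMIs in the remaining cells were dropped as well. Without all cells under 20% pvalb8, with members again chosen by that minimum, it was -0.31. The sum over the list was still 1.22 times that of cells without her4 when the 5 cells were left out, and 1.79 times (1.62 to 1.98) with them. Of the 273 list UMIs left without the 5 cells, 66 lay in the sixth cell described above, which belongs to the class with 3 to 6. Both the 1.22 and the 3062 CPM of that class thus rest in part on 1 cell. Whether RNA of supporting cells took part in the values of these 5 cells was not tested.

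**Figure D3:**
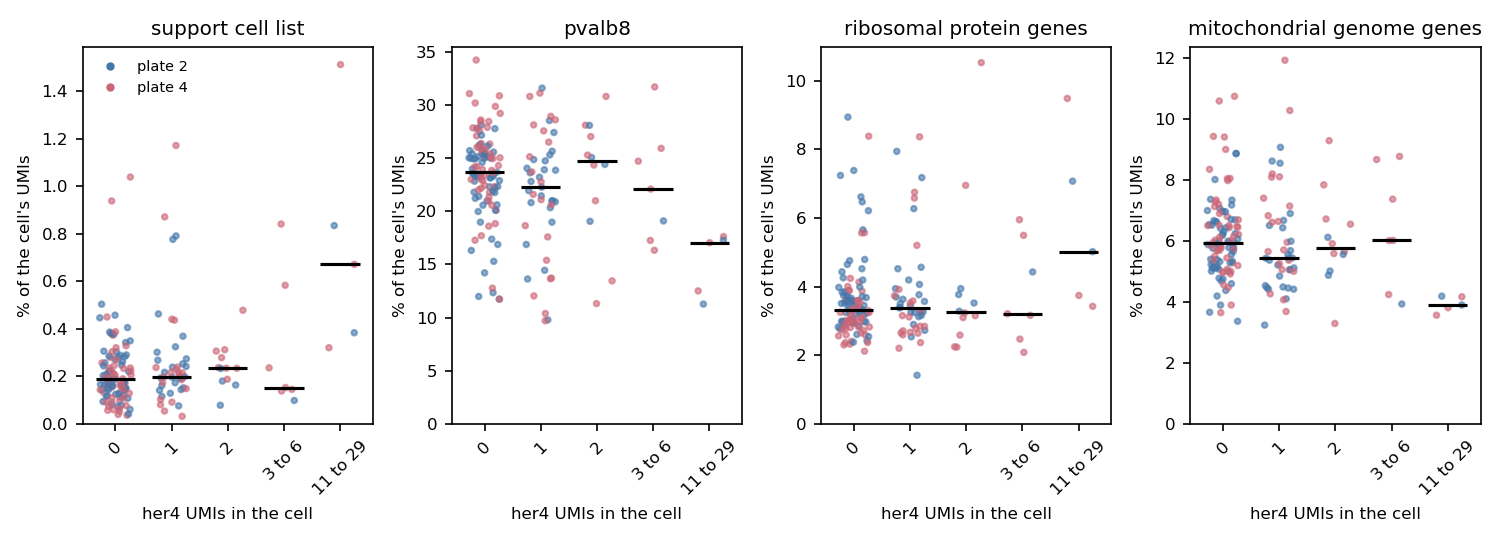
Each point is 1 of the 182 cells, placed by its her4 UMIs (0, 1, 2, 3 to 6, 11 to 29) and coloured by plate, with the share of its UMIs (%) that fell on the supporting cell list, pvalb8, ribosomal protein genes and genes of the mitochondrial genome, and a line at the median. The 5 cells with 11 to 29 UMIs have 11.3% to 17.6% pvalb8, a median of 0.671% for the supporting cell list and 3.57% to 4.19% mitochondrial transcripts.

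Within the Notch pathway, the receptors were hardly detected, the 3 measured ligands were at or below the level of cells without her4, and some other target genes were higher. Receptor rows had 0 UMIs in her4 cells and 2 in cells without her4. Among ligands, DLD, the deltaD ligand of young hair cells, had 241 CPM in her4 cells and 251 CPM in cells without her4, a ratio of 0.96 (0.65 to 1.39). jag2b, a Jagged ligand, had 5 UMIs in 3 of 24 her4 cells and 82 UMIs in 42 of 111 cells without her4, a ratio of 0.28 (0.09 to 0.67), which was 0.18 on plate 2 and 0.79 on plate 4. After thinning, 12.5% of her4 cells and 15.6% of cells without her4 kept a jag2b UMI, so the shares at equal depth lay close. The ligand dll4 had 5 UMIs in her4 cells and 28 in cells without her4, a ratio of 0.81 (0.24 to 2.12).

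Of the target genes other than her4, HEY1 is another repressor of this class. It had 15 UMIs in 6 her4 cells and 8 UMIs in 8 cells without her4, a ratio of 8.48 (3.38 to 23.1). HEY1 reached the minimum of 10 UMIs only with those of her4 cells, so the minimum itself favours its high ratio. her15.1 had 10 UMIs in her4 cells and 11 in cells without her4, a ratio of 4.11 (1.57 to 10.7), which turned to 0.56 without the 5 cells with most her4. her8.2 had 0 UMIs in her4 cells and 25 in cells without her4, of which 11 were in 1 cell. The target list summed to 255 CPM in her4 cells and 92.9 CPM in cells without her4, a ratio of 2.74 (1.77 to 4.2). That ratio was 0.863 on plate 2 and 5.08 on plate 4, and 0.815 without the 5 cells with most her4. HEY1 itself had no UMI in the plate 2 her4 cells, and its ratio without the 5 cells was 3.88.

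Of the processing and modifier genes, PSENEN, a subunit of the gamma-secretase that cuts Notch, had 124 CPM in her4 cells and 149 CPM in cells without her4, a ratio of 0.83 (0.47 to 1.38). APH1B, another subunit, had a ratio of 0.65 (0.33 to 1.17), and dtx2, a Deltex ubiquitin ligase gene, 0.27 (0.03 to 1.07). Over the whole pathway 16 genes were measured, 5 higher and 11 below, beside 1656 higher and 1939 lower of the 3595 genes tested. Of the 11, only DLD, PSENEN and APH1B had 10 or more UMIs in her4 cells. The others reached that minimum only with cells without her4, so it favours their low ratios. The median log2 ratio of the 16 genes was -0.32, or -0.16 with the genes at 0 UMIs placed at a floor of 3 counts over the group. Under 24 alternative settings that median ran from -1.33 to 0.15. Of the 11 tested genes, 2 were called higher, beside 6.43% of all genes tested, and 2 lower, beside 14.7%. LFNG and her15.1, the 2 called higher, had 6 and 11 UMIs in cells without her4. They reached 20 UMIs only with those of her4 cells. The 2 called lower, jag2b and dtx2, had 5 and 2 UMIs in her4 cells and passed only with cells without her4. The minimum itself thus favours these calls on both sides.

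The emx2 gene, which the series title ties to Notch, differed little between her4 cells and the rest when all cells were summed. It had 20 UMIs in 10 of 24 her4 cells and 86 UMIs in 41 of 111 cells without her4. The levels were 138 CPM (84.2 to 213) in her4 cells and 131 CPM (105 to 162) in cells without her4, a ratio of 1.05 (0.61 to 1.73). Within plates the ratio was 0.81 (0.21 to 2.28) on plate 2 and 0.78 (0.42 to 1.38) on plate 4, both below 1, and a Mantel-Haenszel ratio over plates and labels was 0.708. TMM scaling also put the ratio of all cells below 1, at 0.913. A single mutant-labelled cell held 7 of the 20 UMIs.

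By label, the emx2 ratio lay on opposite sides. In mutant-labelled cells, her4 cells had 144 CPM and cells without her4 212 CPM, a ratio of 0.68 (0.31 to 1.34), and on plate 4 alone it was 0.43 (0.19 to 0.87). In wild-type cells, her4 cells had 10 UMIs or 132 CPM and cells without her4 23 UMIs or 63.9 CPM, a ratio of 2.06 (0.88 to 4.5). It was 1.93 on plate 2 and 2.09 on plate 4. The intervals of both labels overlap, and the difference between them was not tested. By her4 count, emx2 was at 131 CPM with 0 UMIs, 157 with 1, 92.5 with 2, 147 with 3 to 6 and 203 with 11 to 29, with no steady order.

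Transcription factors of hair cells summed to a lower level in her4 cells, while the count of lower members was near that of all genes. Of 14 measured, 9 were lower and 5 higher, beside 1939 lower and 1656 higher of the 3595 genes tested, with a median log2 ratio of -0.36 and a summed ratio of 0.805 (0.711 to 0.908), 0.634 on plate 2 and 0.948 on plate 4. gfi1aa, a zinc finger repressor of the hair cell lineage, had 317 CPM in her4 cells and 457 CPM in cells without her4, a ratio of 0.69 (0.50 to 0.95). POU4F1, a POU-domain factor, had a ratio of 0.63 (0.42 to 0.92). RFX2, a factor of cilium genes, had 4 UMIs in her4 cells and 71 in cells without her4, a ratio of 0.25 (0.07 to 0.68). POU4F3, a factor needed for hair cell survival, was at 103 CPM in her4 cells and 94.4 CPM in cells without her4, a ratio of 1.09 (0.58 to 1.95). Among the 14, 2 were called at least 2-fold lower, a share close to the 14.7% of all genes tested.

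Genes of the hair bundle had members on both sides, and those of the ribbon synapse were slightly more often lower. The 26 measured genes of mechanotransduction and the bundle had a median log2 ratio of -0.17 and a summed ratio of 0.962 (0.862 to 1.07). CAPG, an actin-capping protein gene, was at 730 CPM in her4 cells and 697 CPM in cells without her4, and MYO6, an unconventional myosin of the bundle, at 434 CPM in her4 cells and 454 CPM in cells without her4. The more abundant of the rows listed as TMC2, a subunit of the transduction channel, had a ratio of 0.66 (0.44 to 0.96). Within plates the TMC2 ratio was nearer to 1, at 0.77 on plate 2 and 0.81 on plate 4. MYO3A, a myosin of the stereocilia tips, had a ratio of 4.18 (1.74 to 9.93) with 12 UMIs in her4 cells and 13 in cells without her4. It reached the 20 UMIs of tested genes only with those of her4 cells, so that minimum favours its high ratio. At the synapse, 13 of 20 measured genes were lower in her4 cells and 7 higher, with a median log2 ratio of -0.10, near the -0.13 of all genes of that depth. Their summed ratio was 0.878 (0.869 to 0.888), 0.873 on plate 2 and 0.863 on plate 4, and pvalb8 alone gave 28657 of the 36309 UMIs of the list in her4 cells. s100t had a ratio of 0.93 (0.91 to 0.96). SLC17A8, the vesicular glutamate transporter of hair cells, had a ratio of 2.26 (1.38 to 3.62), which was 3.79 on plate 2 and 0.70 on plate 4. ATOH1, the factor that starts hair cell fate, had 14 UMIs in her4 cells and 47 in cells without her4, a ratio of 1.35 (0.69 to 2.49).

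For bundle orientation, 9 genes were measured, emx2 among them, with a median log2 ratio of 0.07. gnai1, an inhibitory G protein subunit, was at 124 CPM in her4 cells and 186 CPM in cells without her4, a ratio of 0.67 (0.38 to 1.1). VANGL2, a core planar polarity gene, had 7 UMIs in her4 cells and 13 in cells without her4, a ratio of 2.44 (0.82 to 6.57).

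On the lower side 251 of the 530 genes at least 2-fold lower, themselves 14.7% of all genes tested, qualified by the naming rule. Of the 15 that it named, 8 had no UMI in her4 cells. The rule counts its 30 UMIs over both groups. Genes with no or few UMIs in her4 cells thus passed only with cells without her4, and the minimum itself favours their low ratios. The her4 group also held fewer UMIs, 145178 against 656697. HAND2, a basic helix-loop-helix factor of the sympathetic lineage, had 0 UMIs in 24 her4 cells and 60 UMIs in 21 of 111 cells without her4. With a floor of 3 counts over the group in place of 0, HAND2 was 4.42-fold lower, which leaves out counting error in cells without her4. That floor equals 20.7 CPM in her4 cells, against 91.4 CPM in cells without her4, and 1 cell held 20 of the 60 UMIs. At 2000 UMIs a cell, 0 of 24 her4 cells (an exact upper bound of 14.2%) and 8.26% of 109 cells without her4 (3.85% to 15%) held a HAND2 UMI, and these intervals overlap. Cells with exactly 1 her4 UMI were at 103 CPM of HAND2, so its absence did not extend to them.

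vipb, a vasoactive intestinal peptide gene, had 32 UMIs in her4 cells and 633 in cells without her4, a ratio of 0.23 (0.16 to 0.33). Per cell it reached 1644 CPM with a median of 33 in her4 cells and 12937 CPM with a median of 253 in cells without her4. At 2000 UMIs, 29.2% of her4 cells (12.6% to 51.1%) and 44% of cells without her4 (34.5% to 53.9%) held a vipb UMI. These intervals overlap. PCBP4, an RNA-binding protein gene, had 34 UMIs in her4 cells and 763 in cells without her4, of which 313 were in 1 cell. Its ratio was 0.20 (0.14 to 0.28), or 0.34 without that cell, and it was 0.11 on plate 2 and 0.69 on plate 4. At 2000 UMIs, 33.3% of her4 cells and 33% of cells without her4 held a PCBP4 UMI.

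KLHL26, a kelch-like gene, was the most widely detected of the low-count genes. It had 4 UMIs in 3 her4 cells and 115 UMIs in 51 cells without her4, a ratio of 0.16 (0.04 to 0.41), on the low side on plate 2 with 0.22 and on plate 4 with 0.09. After thinning, 0 of 24 her4 cells (an exact upper bound of 14.2%) and 25.7% of 109 cells without her4 (17.8% to 34.9%) held a UMI. dync1li1, a dynein light intermediate chain, had 0 UMIs in her4 cells and was 3.54-fold lower by the floor of 3 counts. By that floor TMX1, a thioredoxin-related membrane protein, and ADK, adenosine kinase, were each 3.02-fold lower, and nrxn3b, a neurexin of synapses, 2.80-fold lower. All these folds leave out counting error in cells without her4. GPAT3, ARHGEF7 and SLC66A3 were also at 0 UMIs in her4 cells, with 34 to 35 UMIs in cells without her4. zgc:86598, BCL7A and CD99L2 had 1 to 2 UMIs in her4 cells and 55 to 83 in cells without her4.

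Stress and immediate-early genes were higher in her4 cells, and for the summed list this too lay with the 5 cells. Of 24 measured members 17 were higher and 7 lower, beside 1656 higher and 1939 lower of the 3595 genes tested. The list had a median log2 ratio of 0.67 and a summed ratio of 1.2 (1.14 to 1.28), or 0.912 without the 5 cells. Of 18 tested members 6 were at least 2-fold higher, beside 6.43% of all genes tested. HSPA5, an endoplasmic reticulum chaperone, had 67 UMIs in her4 cells and 99 in cells without her4, a ratio of 3.06 (2.21 to 4.22). Its ratio was still 2.57 without the 5 cells, unlike that of the summed list. BTG2, an antiproliferative early gene, had a ratio of 2.94 (2.12 to 4.06), and the heat shock gene hsp70.1 lay lower with a ratio of 0.79 (0.65 to 0.95). The summed list was at 8339 CPM with 0 her4 UMIs and 16554 CPM with 11 to 29.

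Ribosomal protein genes were slightly higher and mitochondrial transcripts slightly lower. Of 78 measured ribosomal protein genes 57 were higher, with a median log2 ratio of 0.30, and together they made up 4.59% of UMIs in her4 cells and 3.87% in cells without her4. Without the 5 cells that median was 0.06. All 12 measured genes of the mitochondrial genome were lower in her4 cells, with a summed ratio of 0.878 (0.856 to 0.900), or 0.951 without the 5 cells. Under TMM scaling, which lowers all log2 ratios of her4 cells, the ribosomal protein median was 0.10.

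**Figure D4:**
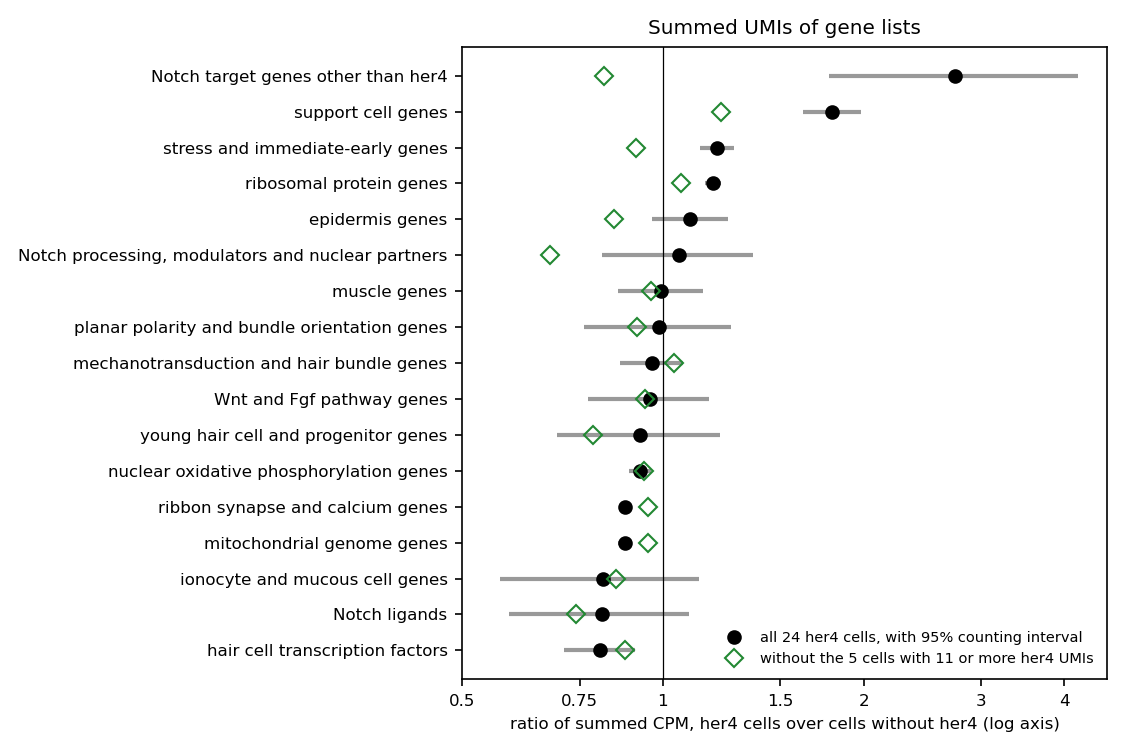
Points give the ratio of summed CPM, her4 cells over cells without her4, for each gene list with at least 50 UMIs, with 95% counting intervals as bars on a log axis; open diamonds leave out the 5 cells with 11 or more her4 UMIs. Notch targets other than her4 stand at 2.74 with and 0.815 without those cells, supporting cell genes at 1.79 and 1.22, stress genes at 1.2 and 0.912.

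Markers of other cell types were read in the same way. Epidermis genes summed to a ratio of 1.1 (0.963 to 1.25), with krt5, a basal keratin, at 0.88 (0.73 to 1.04) and krt8, a simple epithelial keratin, at 2.0 (1.47 to 2.70). Without the 5 cells the krt8 ratio was 0.47. Muscle genes summed to 0.993 (0.856 to 1.15). Neuron and glia genes had 5 UMIs in her4 cells and 43 in cells without her4, a ratio of 0.526 (0.163 to 1.33). Leukocyte genes had 0 UMIs in her4 cells and 1 in cells without her4. Cell cycle genes had 13 UMIs in her4 cells and 28 in cells without her4, or 89.5 CPM against 42.6 CPM. That is a ratio of 2.1 (0.999 to 4.19), which was 0.72 on plate 2 and 2.89 on plate 4. PCNA, the replication clamp, gave 8 of the 13 UMIs in 1 her4 cell.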

How the data were processed

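Libraries of single sorted cells were made by mcSCRB-seq in plates, per the labels' protocols; it reads transcript 3′ ends, marked by cell barcodes and UMIs. The authors deposited raw UMI counts of every gene in every cell. STAR 2.6.0a and build GRCz11 are named per the submitters' processing notes, while annotation and counting tool were not given in the sources used here. Its table held 12409 rows (12354 Ensembl genes, 54 spike-in transcripts and GFP) and 184 cells; 11707 gene identifiers were paired with a symbol, often in human style. Spike-in rows stayed out of all totals. No barcode was shared between samples, and no doublet caller was run on these cells sorted into wells.

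UMIs were summed over her4 cells and over cells without her4 and scaled to CPM. CPM intervals are exact Poisson, ratio intervals exact conditional (Clopper-Pearson), shares exact binomial, all at 95%; log2 ratios use a prior of 1 UMI in each group. Genes were named if fixed (emx2, pvalb8, GFP, her4), or with at least 30 UMIs, a UMI in at least 10% of the cells of the higher group, a ratio past 2 that also held without the top cell, and the same side in each plate and label, at most 15 a side by the interval bound nearest to 1; from each list, up to 3 members with most UMIs and up to 3 with the ratio furthest from 1 were also open to naming. Of the genes so named, 2 are not reported here. Other list members, such as FNDC7, POU4F3, VANGL2 and BTG2, were chosen after their values were seen. The members and lists were chosen with earlier results of these data known. UMI minimums count both groups together, so some genes pass only through the group where they are higher. Symbols were matched regardless of case and without a final a or b. The ratio, interval and call steps were run on simulated counts with counting error only. There, 10.6% of 3351 genes without a change were called higher or lower. Of 50 genes at each change, 24% were called at 2-fold higher and 66% at 2-fold lower, and 100% at 4-fold either way. The changed genes were drawn from those with at least 100 UMIs over both groups, so these shares do not cover tested genes with fewer. Totals were rescaled after the changes, so the change in CPM differed from the one set, also for genes without a change.

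Alternatives were other cell and gene minimums, her4 limits, thinning to 2000 UMIs, per-cell means, edgeR 4.0.16 and DESeq2 1.42.0 scaling of the summed counts, single plates and labels, and cells left out; 2 were added after the data were seen. Python 3.11.15, numpy 2.4.6, pandas 2.3.3, scipy 1.17.1, matplotlib 3.10.9 and R 4.3.3 were used.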

Additional observations from a re-analysis of the deposited data

How the results depend on the processing

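No paired analysis was possible because each sample is a single cell, no comparison was tested, and the replicate numbers only name wells. Of 24 alternatives, the 231 genes higher became 87 and 78 with cells thinned to 2000 UMIs (groups by thinned and by full her4 counts), 140 on plate 4, 137 and 143 in mutant-labelled and wild-type cells, 149 without cells under 20% pvalb8, and 80 and 578 with a gene minimum of 50 UMIs and none. The 530 genes lower became 264 with her4 of 1 or more, 165 and 151 thinned, 163 on plate 4, 271 in mutant-labelled cells, 146 and 1680 with those minimums. The emx2 ratio, here with the prior, was 1.99 in wild-type cells and ran from 0.688 to 1.99, below 1 under 11 settings. The supporting cell median turned to -0.31 without cells under 20% pvalb8 and to -0.19 without the 5 cells with most her4, and stayed above 0 under the other 22. Both values also drop members that then fall under 10 UMIs; over the same 11 members the median without the 5 cells was 0.28.

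The pvalb8 ratio moved beyond its counting interval to 0.840 (3000 UMIs a cell), 0.912 and 0.787 (her4 of 1 and of 3 or more), 0.854 (her4.5 alone), 0.899 and 0.911 (thinned), 0.909 (per-cell mean), 0.850 (Mantel-Haenszel), 0.751 (TMM), 0.766 (DESeq2), 0.829 (other library sizes), 0.837 (plate 4), 0.903 and 0.824 (mutant-labelled and wild-type cells), 1.06 (no cells under 20% pvalb8, which selects on pvalb8), 0.946 (without the 5 cells) and 0.853 (without the deepest cell lacking her4); it stayed below 1 under 23 of 24. The hair bundle median was -0.37 with her4.5 alone, -0.37 under TMM and 0.23 in wild-type cells. The ribosomal protein median was 0.074 with her4 of 1 or more, 0.10 under TMM, 0.47 on plate 4, -0.12 without cells under 20% pvalb8 and 0.058 without the 5 cells. Median depth of her4 cells was 11266 UMIs on plate 2.

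Depth limits what was detectable: the her4 group holds 145178 UMIs, so the floor of 3 counts for a gene at 0 there equals 20.7 CPM. This floor is a set value and not the exact Poisson limit used for CPM intervals. Several strata rest on few cells, with 2 her4 cells among the mutant-labelled cells of plate 2. Variation between animals could not be measured.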
